A study of Mus musculus with 10 samples.

Results

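Cholesterol synthesis was followed through 8 genes in AOM/DSS colon tumors with and without epithelial Wnt secretion. The genes are the enzymes Hmgcs1, Idi1, Fdps, Fdft1, Sqle, Lss and Dhcr7 and the transcription factor gene Srebf2. They were chosen by name, with earlier results of these data known, and all 8 were found among the 16875 gene names of the deposited table. Tumors had been raised in C57BL/6 mice with azoxymethane (AOM), a colon carcinogen, followed by 3 cycles of 2% dextran sulfate sodium (DSS), which injures the mucosa. Mice were 6 to 10 weeks old at the start. The 5 control tumors are described as Wls flox/flox alone, and the 5 Villin-Wls cKO tumors as Villin-Cre ERT2 with Wls flox/flox. Under that description both groups shared the floxed allele. The sample titles call the control tumors Wls WT, and the methods call them wild type. Wls encodes Wntless, a membrane protein that Wnt ligands need for their secretion. The Villin promoter directs Cre to the intestinal epithelium, and the other cells of the tumor keep Wls. Cre was activated by 5 injections of tamoxifen, the first 30 days before collection. Control tumors were from mice without tamoxifen unless stated otherwise. The labels do not tie tumors to mice, so n counts tumors and the p-values measure the spread between tumors.

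Cells make cholesterol from acetyl-CoA through mevalonate, isoprenoid units, squalene and lanosterol. The route is switched on by SREBP2, the product of Srebf2, which is held in the endoplasmic reticulum while sterols are plentiful. When sterols fall, SCAP carries SREBP2 to the Golgi, where a pair of proteases release its active part, and the genes of synthesis and uptake are transcribed together. Proliferating epithelium uses the products for membranes and for isoprenoid modification of proteins.

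The deposited values are FPKM, fragments mapped per transcript length and sequencing depth, which allow levels to be compared between genes per length. They were compared as log2(FPKM + 1) with limma over the 16757 genes whose mean FPKM was at least 0.5, with a two-sided test and Benjamini-Hochberg adjustment over all of them. FPKM summed to between 1207683 and 1533885 per tumor, and read numbers were not recovered, so depth is unknown. The targeted gene Wls had 61.3 to 79.9 FPKM in control tumors. In Villin-Wls cKO tumors 1 to 5 it had 2.81, 11.6, 11.7, 3.61 and 2.03 FPKM. The groups also differed in sex: Xist was at most 0.420 FPKM in control tumors and at least 439 FPKM in Villin-Wls cKO tumors, whereas the Y-linked Eif2s3y was at least 30.4 and at most 0.138 FPKM. Genotype, sex and tamoxifen cannot be told apart here. Villin-Wls cKO tumors 2 and 3 stood apart by the squamous keratin Krt5, at 469.5 and 669 FPKM, where the other 8 tumors had at most 0.315 FPKM. Samples were whole tumor pieces, in which fewer cells of a type and less RNA per cell cannot be told apart.

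Promoter stretches of Hmgcs1, Lss and Srebf2 are printed to show where letters of known control elements of this route occur, in an enzyme gene from the start of the route, a later one and the gene of the factor itself. RefSeq promoter windows of GRCm38.p6 (250 bases before to 50 after a transcript start) were found for 5 of the 8 genes, namely Hmgcs1, Idi1, Lss, Dhcr7 and Srebf2. Fdps, Fdft1 and Sqle were not matched. The sterol regulatory element was searched as TCACNCCAC and the NF-Y box, whose factor works beside SREBP, as CCAAT, both on either strand. Capitals mark the matches, which did not overlap each other; ATTGG is CCAAT read on the other strand. The stretches run 5′ to 3′ on the plus strand and stop before the first annotated transcript base, at chr13:119690101-119690350 for Hmgcs1, chr10:76531355-76531587 for Lss and chr15:82147019-82147180 for Srebf2.
Hmgcs1: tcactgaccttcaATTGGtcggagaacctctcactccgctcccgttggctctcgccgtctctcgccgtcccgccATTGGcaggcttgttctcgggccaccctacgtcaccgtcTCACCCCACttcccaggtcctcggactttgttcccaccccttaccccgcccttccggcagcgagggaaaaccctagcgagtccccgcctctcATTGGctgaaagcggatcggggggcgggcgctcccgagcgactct
Lss: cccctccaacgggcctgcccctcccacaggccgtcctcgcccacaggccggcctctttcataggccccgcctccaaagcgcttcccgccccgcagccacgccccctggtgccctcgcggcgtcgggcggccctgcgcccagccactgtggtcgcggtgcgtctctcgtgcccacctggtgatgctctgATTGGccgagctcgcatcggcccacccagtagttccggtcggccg
Srebf2: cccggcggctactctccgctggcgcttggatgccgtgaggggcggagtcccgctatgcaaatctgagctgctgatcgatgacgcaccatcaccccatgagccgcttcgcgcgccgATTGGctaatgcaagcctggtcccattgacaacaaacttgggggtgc

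The sterol element was matched in 1 of the 5 genes, Hmgcs1, as TCACCCCAC from 137 bases before the RefSeq start, and it occurs in 1.24% of the 32851 windows of the table. The 5 genes had 7 windows, 3 of them for Dhcr7, and CCAAT was found in 5 of the 7, 1 for each gene, against 37.4% of all windows. Hmgcs1 held 4 copies, 1 of them past the printed stretch, Idi1 held 2, Lss and Srebf2 held 1 each, and Dhcr7 held 2, both in 1 window. These are exact matches of letters, not measured binding. Near matches were not counted, so a gene without a match may still hold such an element.

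All 8 genes had a higher mean in Villin-Wls cKO tumors than in control tumors, by 1.05-fold to 1.37-fold, and none of the differences passed the threshold. In limma, 0 of 8 were past an adjusted p of 0.05, against 10.9% of all genes tested, of which 6.12% were higher and 4.75% lower. At an unadjusted p under 0.05, 2 of the 8 were higher, Fdft1 and Lss, against 13.9% of all genes. The median difference of the 8 was 0.26 on the log2(FPKM + 1) scale, with a range from 0.076 to 0.51, whereas the median over all genes tested was 0.0073 and 51.4% of them lay above 0. The groups overlapped for all 8 genes, and in the whole table they did not overlap for 10.1% of genes. Control tumor 3 was the highest control tumor for each of the 8 genes, as it was for 25.8% of all genes tested. For 6 of the 8 the Villin-Wls cKO tumors lay above every other control tumor, as they did for 8.24% of all genes. Control tumor 3 was singled out from these values, so that share is not a test.

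Hmgcs1, on chromosome 13 from 119690379 to 119708260 (GRCm38, GENCODE M21, as for all positions), encodes the cytosolic synthase that makes HMG-CoA, an early intermediate on the way to mevalonate. In control tumors 1 to 5 it was at 70.0, 60.2, 119, 81.8 and 77.5 FPKM, and in Villin-Wls cKO tumors 1 to 5 at 104, 99.0, 103, 90.5 and 103 FPKM. An antisense gene, Gm48342, overlaps it. The Villin-Wls cKO tumors lay close together, above 4 control tumors and below the remaining control tumor 3. Means were 81.8 ± 22.6 and 99.9 ± 5.58 FPKM (SD, n = 5 in each group), and the log2 difference was 0.32 (standard error 0.15, limma adjusted p = 0.216). 

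Idi1, on chromosome 13 from 8885501 to 8892451, encodes the isomerase that interconverts the isoprenoid units IPP and DMAPP. It had the lowest level of the 8 genes, with 3.16, 2.93, 4.93, 3.63 and 3.87 FPKM in control tumors 1 to 5 and 4.73, 4.02, 4.38, 4.90 and 4.83 FPKM in Villin-Wls cKO tumors 1 to 5. Again the Villin-Wls cKO tumors lay between control tumor 3 and the other control tumors. The log2 difference was 0.26 (standard error 0.12, limma adjusted p = 0.213). At this level the added 1 matters, and with a pseudocount of 0.1 the difference was 0.31.

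Fdps, on chromosome 3 from 89093588 to 89101959, encodes farnesyl diphosphate synthase, at the branch between sterols and protein prenylation. Its value cannot be assigned to the gene alone, because the neighbouring names Rusc1 and RP24-394C15.7 carried the same FPKM in every tumor. Control tumors 1 to 5 were at 48.1, 44.6, 53.7, 44.6 and 44.2 FPKM, and Villin-Wls cKO tumors 1 to 5 at 45.4, 53.6, 49.7, 48.2 and 51.1 FPKM. The ranges of the groups were nearly the same, and the log2 difference was 0.077 (95% interval -0.083 to 0.24, limma adjusted p = 0.559). It was 0.12 without control tumor 3 and 0.049 without Villin-Wls cKO tumor 2.

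Fdft1, on chromosome 14 from 63145150 to 63179578, encodes squalene synthase, the first enzyme committed to sterols. It was at 37.1, 34.1, 55.2, 37.9 and 40.2 FPKM in control tumors 1 to 5 and at 52.1, 51.8, 55.0, 55.9 and 50.2 FPKM in Villin-Wls cKO tumors 1 to 5. Control tumor 3 was as high as the Villin-Wls cKO tumors, and the other 4 control tumors were well below all of them. Fdft1 came nearest to the threshold, with means of 40.9 ± 8.27 and 53.0 ± 2.40 FPKM (SD, n = 5 in each group) and a log2 difference of 0.39 (standard error 0.11, limma adjusted p = 0.0568). The gene overlaps Ctsb on the opposite strand, and the methods name default settings for the mapping and quantification, under which reads are treated as unstranded, so that reads from the shared stretch cannot be told apart by strand. Ctsb had 96.3 to 138 FPKM in control tumors and 100.3 to 124 FPKM in Villin-Wls cKO tumors, a log2 difference of 0.028 (limma adjusted p = 0.911).

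Sqle, on chromosome 15 from 59315077 to 59331192, encodes squalene epoxidase, the first oxygen-dependent step and another point of control of the route. Its values were 52.1, 43.7, 83.9, 56.5 and 55.4 FPKM in control tumors 1 to 5 and 62.9, 65.0, 80.2, 59.3 and 75.7 FPKM in Villin-Wls cKO tumors 1 to 5. Villin-Wls cKO tumors 3 and 5 were near control tumor 3, and the other 3 were nearer to the remaining control tumors. The log2 difference was 0.26 (standard error 0.16, limma adjusted p = 0.344), and it was 0.16 without control tumor 2 and 0.39 without control tumor 3.

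Lss, on chromosome 10 from 76531588 to 76557138, encodes lanosterol synthase, which closes the sterol rings, and its locus is overlapped by the antisense gene 4930483K19Rik. It had the widest relative spread, with 16.9, 13.3, 36.4, 16.0 and 21.3 FPKM in control tumors 1 to 5 and 22.0, 31.1, 29.6, 30.7 and 29.3 FPKM in Villin-Wls cKO tumors 1 to 5. The lowest Villin-Wls cKO tumor, number 1, lay just above control tumor 5, and control tumor 3 was above all. Lss also had the largest difference of the 8 genes, a log2 difference of 0.51 (standard error 0.23, limma adjusted p = 0.188), with means of 20.8 ± 9.18 and 28.5 ± 3.73 FPKM (SD, n = 5 in each group).

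Dhcr7, on chromosome 7 from 143823145 to 143848410, encodes the reductase of the last step to cholesterol. It was at 29.6, 42.1, 58.0, 41.6 and 41.4 FPKM in control tumors 1 to 5 and at 46.7, 42.7, 48.9, 50.2 and 61.9 FPKM in Villin-Wls cKO tumors 1 to 5. Here the highest value was that of Villin-Wls cKO tumor 5, and the lowest that of control tumor 1. The log2 difference was 0.25 (standard error 0.16, limma adjusted p = 0.358), and without control tumor 1 it was 0.13.

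Srebf2, on chromosome 15 from 82147181 to 82205379, encodes SREBP2 itself and hosts the microRNA gene Mir33 in its span. It was at 77.8, 79.3, 102, 75.3 and 84.5 FPKM in control tumors 1 to 5 and at 79.7, 97.5, 89.7, 83.9 and 89.1 FPKM in Villin-Wls cKO tumors 1 to 5. The groups overlapped through most of their range. The log2 difference was 0.076 (95% interval -0.12 to 0.28, limma adjusted p = 0.657). With quantile normalization it became -0.0092, where the median over all genes tested was -0.045. The Srebf2 difference was 0.15 without control tumor 3, 0.040 without control tumor 4 and 0.038 without Villin-Wls cKO tumor 2. These values are mRNA levels and do not measure the cleaved, active protein.

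**Figure D1:**
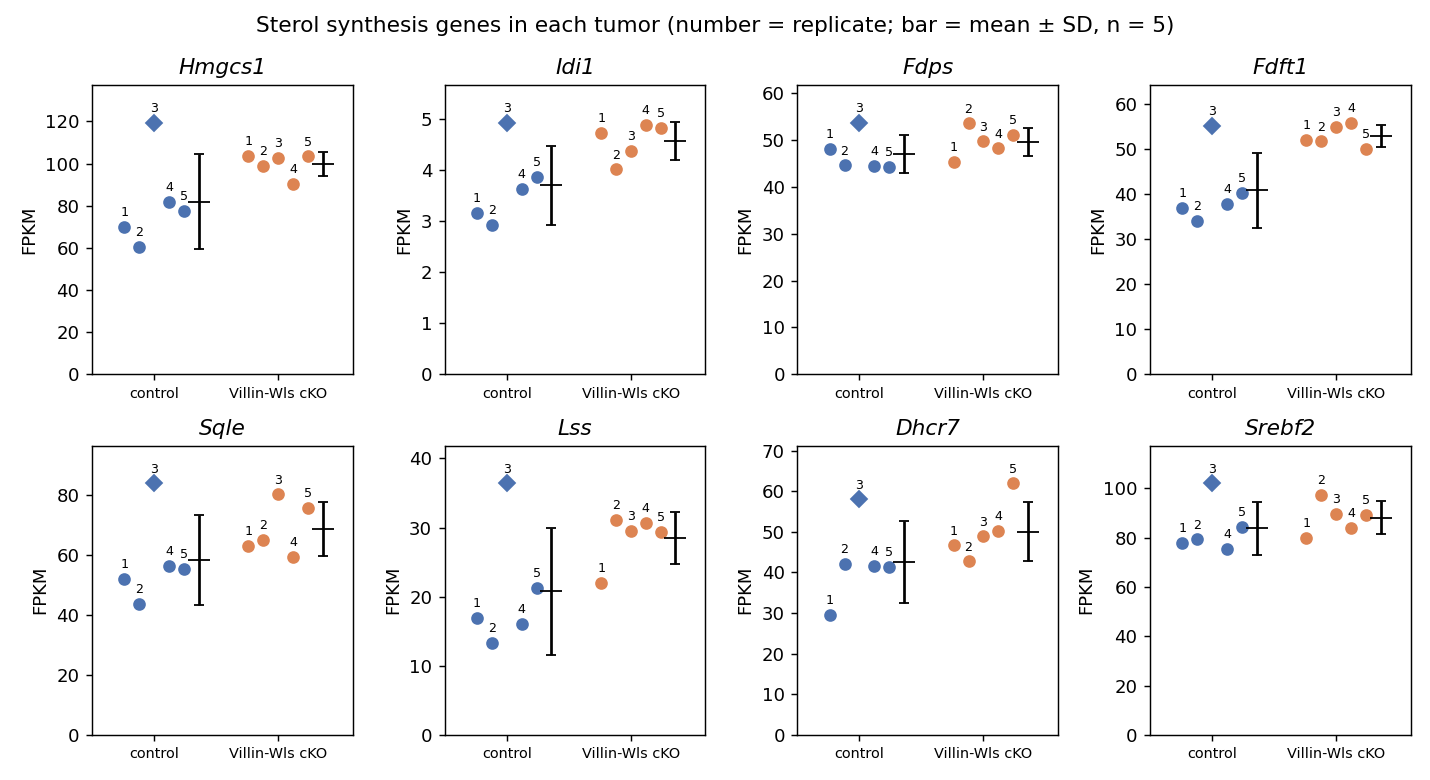
FPKM of the 8 genes in each of 5 control (blue) and 5 Villin-Wls cKO (orange) tumors, with the replicate number above each point, control tumor 3 as a diamond, and black bars for mean ± SD (n = 5). Control tumor 3 is the highest control tumor in all 8 panels, at 119 FPKM for Hmgcs1 and 36.4 FPKM for Lss.

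In control tumors the order of levels per length was Srebf2 (mean 83.7 FPKM), Hmgcs1 (81.8), Sqle (58.3), Fdps (47.0), Dhcr7 (42.5), Fdft1 (40.9), Lss (20.8) and Idi1 (3.71). Hmgcs1 exceeded Sqle, Fdft1 exceeded Lss, and Lss exceeded Idi1 in all 10 tumors, and Sqle exceeded the shared Fdps value in 9. Other neighbours were not ordered beyond their spread. Srebf2 exceeded Hmgcs1 in 3 of 5 control tumors and in 0 of 5 Villin-Wls cKO tumors, Fdps exceeded Dhcr7 in 6 of 10 tumors, and Dhcr7 exceeded Fdft1 in 5 of 10.

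Among control tumors the 8 genes shared the high value of tumor 3, whereas among Villin-Wls cKO tumors the lowest tumor differed from gene to gene. Averaged over the 8, after subtraction of each gene's mean over the 10 tumors, log2(FPKM + 1) was 0.33 in control tumor 3 and -0.30, -0.37, -0.20 and -0.13 in control tumors 1, 2, 4 and 5. In Villin-Wls cKO tumors 1 to 5 the average was 0.041, 0.12, 0.18, 0.11 and 0.21. In control tumor 3 all 8 genes were above their own mean, and in the other 4 control tumors 0 of 8 were. In Villin-Wls cKO tumors 1 to 5, 5, 6, 8, 6 and 8 of the 8 genes were above it. Control tumor 3 was the highest of all 10 tumors for 6 of the 8 genes, and control tumor 2 the lowest for 5. Among all genes tested, control tumor 3 was the highest control tumor for 25.8% and the highest tumor for 9.15%. All 8 genes had a larger SD of log2(FPKM + 1) among control than among Villin-Wls cKO tumors, which held for 45.2% of genes tested, and among the 4 control tumors other than tumor 3 it still held for 5 of the 8. The spread was widest for Lss, with an SD of 0.53 in control tumors and 0.20 in Villin-Wls cKO tumors, and was 0.36 and 0.082 for Hmgcs1.

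**Figure D2:**
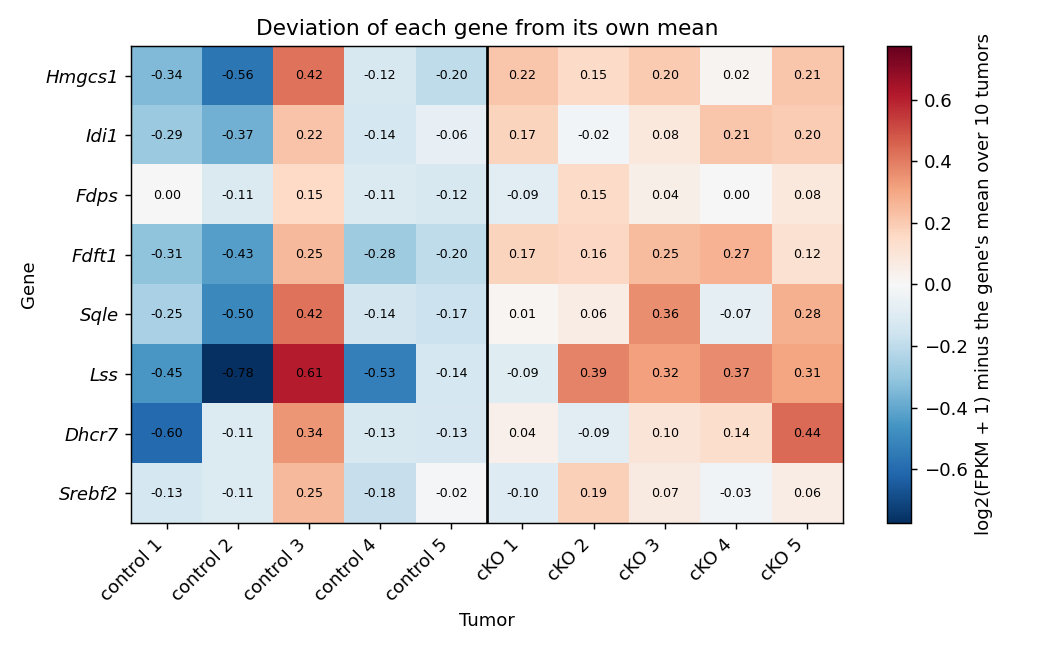
Deviation of log2(FPKM + 1) from each gene's mean over 10 tumors, for the 8 genes, by tumor; red is above and blue below the mean. Control tumor 3 is red in every row shown, and the other 4 control tumors are blue or near 0.

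Leaving out each tumor in turn changed how many of the 8 genes passed the threshold only for control tumor 3. Without it, 3 of the 8 genes were higher past the threshold, Hmgcs1, Fdft1 and Lss, against 7.02% of all genes higher in the same fit. Fdft1 then differed by 0.50 (standard error 0.066, limma adjusted p = 0.00186), Lss by 0.73 (standard error 0.14, limma adjusted p = 0.0116) and Hmgcs1 by 0.47 (standard error 0.093, limma adjusted p = 0.0129). Sqle, Idi1, Dhcr7, Srebf2 and Fdps did not pass, with adjusted p from 0.0512 to 0.256. For 6 of the 8 genes, all but Fdps and Srebf2, the 5 Villin-Wls cKO tumors lay above each of control tumors 1, 2, 4 and 5, an arrangement found for 8.24% of all genes. Control tumor 3 was set aside because it was high for these genes, so neither this count nor that of genes passing without it is independent of the choice, and neither share is a test. Without any single other tumor, 0 of 8 genes passed. Without the squamous keratin-rich Villin-Wls cKO tumors 2 and 3 together, 0 of 8 passed and the differences lay between 0.016 for Srebf2 and 0.45 for Lss.

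**Figure D3:**
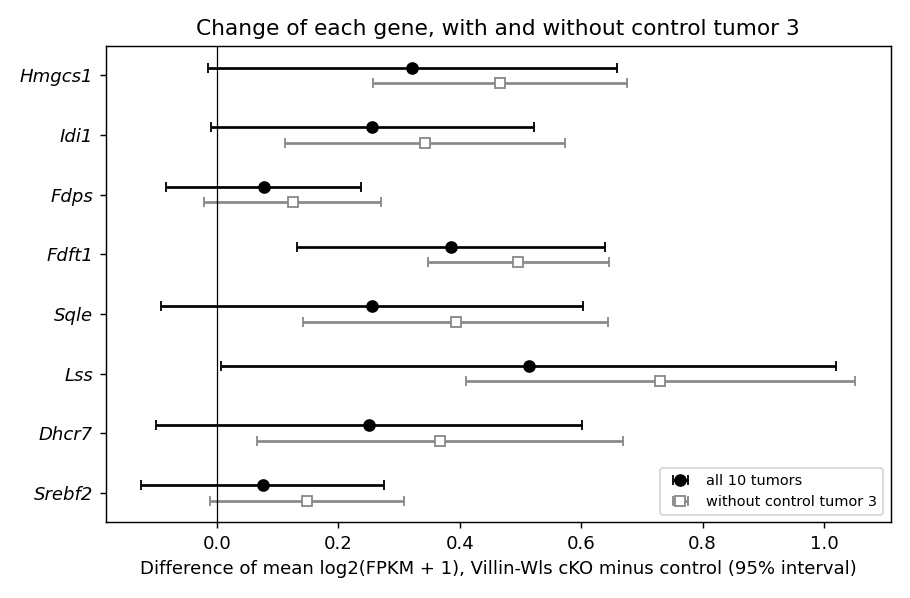
Difference of mean log2(FPKM + 1), Villin-Wls cKO minus control, with its 95% interval from limma, for all 10 tumors (filled circles) and without control tumor 3 (open squares). All 16 differences lie above 0; without control tumor 3 that of Lss goes from 0.51 to 0.73 and that of Fdft1 from 0.39 to 0.50.

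Markers of other cell types were examined beside these values, where 6.12% of all genes tested were higher past the threshold and 4.75% lower. The 7 epithelial markers, all in the table, summed to 8414 FPKM in control tumor 3, to between 5974 and 7587 FPKM in the other control tumors, and to between 7208 and 9219 FPKM in Villin-Wls cKO tumors, with 0 past the threshold. The 6 fibroblast markers summed to 1010 FPKM in control tumor 3, to between 278 and 691 FPKM in the other control tumors and to between 378 and 1150 FPKM in Villin-Wls cKO tumors. The 6 macrophage markers summed to between 80.2 and 122 FPKM in control tumors, with tumor 3 the highest, and to between 112 and 167 FPKM in Villin-Wls cKO tumors, with 1 of 6 higher past the threshold. The 6 T cell markers summed to between 4.04 and 9.16 FPKM in control tumors, with tumor 3 the lowest, and to between 9.38 and 20.9 FPKM in Villin-Wls cKO tumors, with 4 of 6 higher past the threshold. Their part in the sterol gene values was not tested. Of 9 sebaceous gland markers 6 were not among the gene names, and of the 3 present Scd3 shares its values with Scd2. The 3 summed to 372 FPKM in control tumor 3, to 224 to 322 FPKM in the other control tumors and to 320 to 406 FPKM in Villin-Wls cKO tumors. Most of this was the shared Scd2 value, at 359 FPKM in control tumor 3 and 307 to 395 FPKM in Villin-Wls cKO tumors. The sum therefore follows that value and does not measure sebaceous cells. Of 5 adipocyte markers 2 were present, with sums of 4.88 to 10.996 FPKM in control tumors, tumor 3 the highest, and of 5.32 to 15.2 FPKM in Villin-Wls cKO tumors. The 8 squamous markers present, of 9, summed to 817 and 1067 FPKM in Villin-Wls cKO tumors 2 and 3, to 16.4 to 50.7 FPKM in the other Villin-Wls cKO tumors and to 43.2 to 164 FPKM in control tumors, and 3 of them were at 0 in at least 1 tumor.

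Of the other enzymes of the route, 13 of 14 listed were measured, and 2 rose in Villin-Wls cKO tumors while 0 fell, where 6.12% of all genes were higher and 4.75% lower. Their median difference was 0.24, and 10 of 13 lay above 0, as did 51.4% of all genes. Msmo1, the methyl sterol oxidase that removes methyl groups from lanosterol products, was at 88.3, 78.4, 129, 100.4 and 106 FPKM in control tumors 1 to 5 and at 146, 116, 158, 147 and 144 FPKM in Villin-Wls cKO tumors 1 to 5. Only Villin-Wls cKO tumor 2 fell within the range of the control tumors, where control tumor 3 was the highest. The difference was 0.51 (standard error 0.13, limma adjusted p = 0.0324), and it did not pass in 8 of the 10 fits that left out a tumor, all but those without control tumor 3 or Villin-Wls cKO tumor 2, with adjusted p up to 0.0788.

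Sc5d, the desaturase that acts just before Dhcr7, was at 39.6, 31.5, 44.6, 36.6 and 38.2 FPKM in control tumors 1 to 5. In Villin-Wls cKO tumors 1 to 5 it was at 50.4, 48.7, 47.2, 45.8 and 53.3 FPKM. The groups did not overlap, although control tumor 3 was again nearest to the Villin-Wls cKO tumors. The difference was 0.36 (standard error 0.088, limma adjusted p = 0.0259), and it missed the threshold without control tumor 4 or 5 or without Villin-Wls cKO tumor 1 or 5, with adjusted p from 0.0535 to 0.0622. Without Villin-Wls cKO tumors 2 and 3 together, Msmo1 (adjusted p = 0.0633) and Sc5d (adjusted p = 0.0841) also missed it, at differences of 0.55 and 0.38. Among these 13 enzymes control tumor 3 was the highest control tumor for 9, and without it, a choice made from such values, 4 were higher past the threshold against 7.02% of all genes, namely Pmvk, Lbr, Msmo1 and Sc5d; the value of Lbr is shared with another gene name. Nsdhl and Ebp lie on chromosome X, and their differences of 0.20 each did not pass (limma adjusted p = 0.290 and 0.206).

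Among 10 genes listed for SREBP control, 1 fell and 0 rose, near the 10.9% of all genes past the threshold. Their median difference was 0.036, and the list is broader than the direct regulators of SREBP2. The gene that fell was Mbtps1, on chromosome 8, which encodes the site-1 protease that makes the first cut in SREBP2 in the Golgi. It was at 64.5, 58.4, 53.6, 56.0 and 51.5 FPKM in control tumors 1 to 5 and at 38.5, 41.5, 42.5, 37.2 and 44.6 FPKM in Villin-Wls cKO tumors 1 to 5. Every Villin-Wls cKO tumor was below every control tumor, and control tumor 3 was not exceptional. The difference was -0.47 (standard error 0.077, limma adjusted p = 0.00404) and stayed past the threshold in all 22 alternatives. Mbtps2, the site-2 protease on chromosome X, whose values are shared with Yy2, differed by -0.039 (limma adjusted p = 0.817). Insig1, whose product retains SCAP in the endoplasmic reticulum and whose gene is itself a target of SREBP, was highest in control tumor 3, with 48.1 FPKM against 20.2 to 31.2 FPKM in the other control tumors and 30.7 to 40.7 FPKM in Villin-Wls cKO tumors, a difference of 0.15 (limma adjusted p = 0.686).

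For cholesterol uptake and transport, 12 of 13 listed genes were measured, 0 rose and 1 fell, near the 10.9% of all genes past the threshold, with a median difference of 0.00026 and 6 on each side of 0. Npc2, the lysosomal protein that hands cholesterol to NPC1, had 78.8 to 88.0 FPKM in control tumors and 56.6 to 73.8 FPKM in Villin-Wls cKO tumors, with no overlap and a difference of -0.34 (standard error 0.074, limma adjusted p = 0.0154). The limma adjusted p was 0.0589 without Villin-Wls cKO tumors 2 and 3 together and 0.140 after rescaling to the same FPKM sum. After that rescaling the Npc2 difference was -0.24, where the median over all genes tested was 0.097.

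Of 12 listed genes of cholesterol efflux, storage and oxidation 11 were measured, 0 rose and 1 fell, again near the 10.9% of all genes, with a median difference of -0.082. Cyp27a1, the mitochondrial sterol 27-hydroxylase, was at 69.8, 81.4, 62.7, 43.8 and 46.0 FPKM in control tumors 1 to 5 and at 38.2, 29.6, 28.4, 36.5 and 29.9 FPKM in Villin-Wls cKO tumors 1 to 5. The groups did not overlap, at 0.535-fold in the mean. The difference was -0.85 (standard error 0.17, limma adjusted p = 0.0113), and the adjusted p was 0.0739 without Villin-Wls cKO tumors 2 and 3 together. For fatty acid synthesis, the neighbouring route under SREBP1, 12 of 13 listed genes were measured and 0 passed in limma. At an unadjusted limma p under 0.05 there were 3 of the 12, all higher. In the same fit 4308 of the 16757 genes tested were under it in either direction, and 13.9% were higher. The median difference of the list was 0.23, with 10 of 12 above 0, as were 51.4% of all genes. Among all 58 measured genes of these lists, 7 share their values with another gene name, 0 of them among the 5 that passed.

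**Figure D4:**
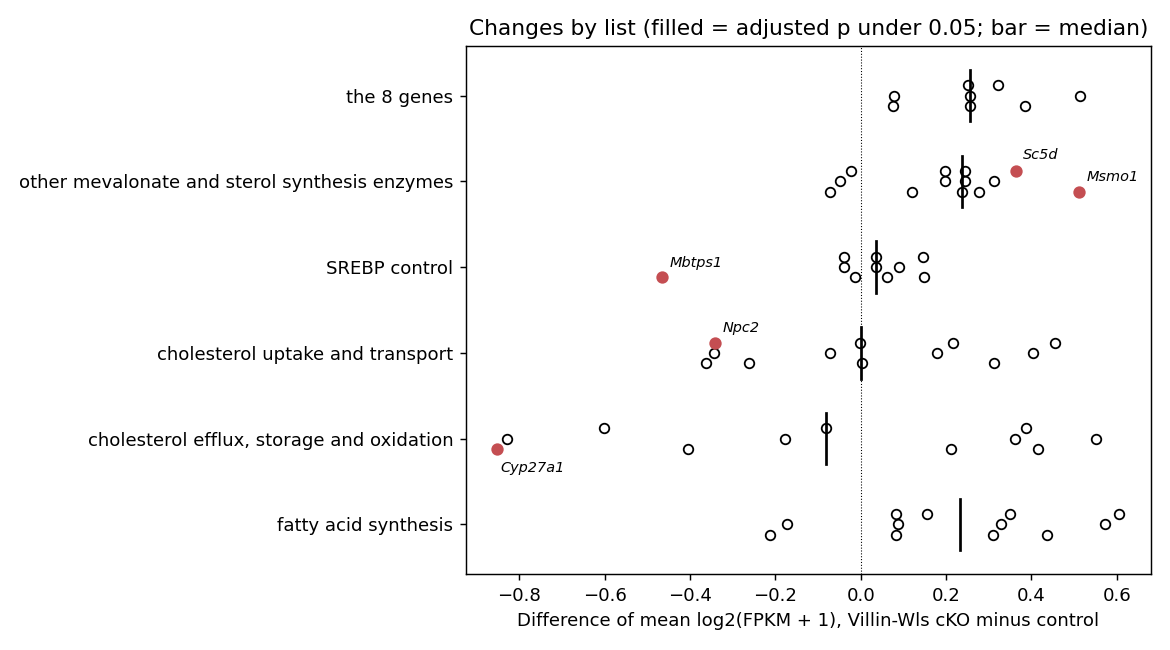
Difference of mean log2(FPKM + 1), Villin-Wls cKO minus control, of each measured gene, by list; filled points are past an adjusted p of 0.05 in limma and vertical bars are list medians. The 8 genes have a median of 0.26 with 0 filled points, the other synthesis enzymes 0.24 with 2, and the 3 genes that fell lie in the lists of SREBP control, uptake and efflux.

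The gene most like the 8 in pattern, among those compared, was Srpr, for the receptor of the signal recognition particle. Likeness was the mean absolute difference over the 10 tumors between a gene's z-scored log2(FPKM + 1) and the z-scored mean profile of the 8, among 9778 other genes that averaged 5 FPKM or more and had values of their own. It was 0.228 SD for Srpr, whereas the median gene was at 1.06 SD. The next in order were Dhx38, for a splicing helicase, at 0.235 SD, Hdlbp, for the RNA-binding protein vigilin, at 0.249 SD, Rpn1, for a subunit of the oligosaccharyltransferase, at 0.280 SD, and Celsr1, for a planar cell polarity cadherin, at 0.294 SD. Rpn1 was at 66.5, 64.5, 84.9, 68.1 and 67.6 FPKM in control tumors 1 to 5 and at 83.6, 83.6, 87.8, 77.4 and 86.8 FPKM in Villin-Wls cKO tumors 1 to 5. Control tumor 3 lay among the Villin-Wls cKO tumors and the other control tumors below all of them, which follows from the choice by likeness. None of these 5 genes passed the threshold, with limma adjusted p from 0.0675 for Rpn1 to 0.478 for Dhx38. Of the other listed genes, Pmvk ranked 45, Acat2 61, Sc5d 80 and Msmo1 93 of 9778, whereas Ggps1 ranked 9336 and Mbtps1 9426.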

How the data were processed

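Stranded mRNA libraries had been made from 10 macrodissected colon tumors. Reads were aligned by the authors with TopHat2 2.1.1 (build GRCm38.p5) and quantified with Cufflinks 2.2.1 and Cuffdiff. The deposited values are FPKM per gene name and tumor. Default settings were stated, under which these tools treat reads as unstranded. The annotation release is not given in the sources used here. All columns were matched to a tumor by label and 0 were left over. Among 277 low genes at most 6 shared a ratio between control tumors 1 and 2 within 0.01%, so whole reads were not recovered; precision rests on the spread between tumors.

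Differences were fitted across all genes with limma 3.58.1 (R 4.3.3) after log2 transformation of FPKM + 1, for a mean FPKM of at least 0.5, a variance trend and no covariate, and tested on simulated data. Summaries used Python 3.11.15, pandas 2.3.3 and scipy 1.17.1. The 8 genes and all lists were chosen with earlier results of these data known. Some genes are not reported here and were left out of the lists and the profile comparison, not of the fit. Named were the 8 genes, list genes past the threshold, and the 5 genes of most similar profile, with Wls, Xist and Eif2s3y as checks; Pmvk, Lbr, Insig1, Acat2, Ggps1, Krt5, the X-linked genes and Ctsb were named after their values were seen. Alternatives covered pseudocount, scaling, filter, variance prior, tumor weights, a replicate block and tumors left out.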

Additional observations from a re-analysis of the deposited data

Results flagged for a closer look

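Among 36 groups of 5 tumors examined (18 named genes in both groups), 4 held a value whose gap to its nearest neighbour was more than 0.71 of the range of the group (Dixon's ratio), where chance gives about 1 group in 20. Lss in Villin-Wls cKO tumor 1 was at 22.0 FPKM, with the next value at 29.3 FPKM. In control tumor 3, Dhx38 was at 20.5 FPKM, with the next value at 16.1 FPKM, Rpn1 at 84.9 FPKM, with the next at 68.1 FPKM, and Celsr1 at 33.3 FPKM, with the next at 20.9 FPKM. These 3 genes were named for a profile like that of the sterol synthesis genes, which were all highest among controls in that tumor. Their flags follow in part from that choice, and the 36 groups share the same tumors. The chance rate therefore does not apply to the count of 4, which is not a test.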

How the results depend on the processing

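Of the 8 genes, Idi1, Fdps, Sqle and Dhcr7 stayed above 0 and short of the threshold in every alternative run; Idi1 could not be tested with a mean FPKM of at least 5. Fdft1 passed at 0.49 after rescaling to the same FPKM sum and at 0.41 with tumor quality weights, so that 1 of 8 genes passed under each. After that rescaling the median difference over all genes tested was 0.097. When single tumors were left out, the difference lay between 0.33 and 0.50 for Fdft1, 0.22 and 0.47 for Hmgcs1 and 0.38 and 0.73 for Lss, and 0 to 3 of the 8 genes passed, the 3 only without control tumor 3. Srebf2 turned to -0.0092 with quantile normalization, where the median difference over all genes tested was -0.045.

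Of the other listed genes 5 passed, 2 higher and 3 lower. Rescaling to the same FPKM sum gave 4 higher and 2 lower. Leaving out Villin-Wls cKO tumors 2 and 3 gave 0 higher and 3 in all, and leaving out 1 tumor at a time gave 3 to 9 in all (0 to 5 higher), the 9 without control tumor 3. Over all genes, 1822 passed (1026 higher, 796 lower); 1092 did without Villin-Wls cKO tumors 2 and 3 (654 higher, 438 lower), rescaling gave 1385 higher and 412 lower, and leaving out 1 tumor left 507 to 806 lower. Rescaling moved the median difference over all genes tested from 0.0073 to 0.097. FPKM sums were 1265992 to 1533885 in control tumors and 1207683 to 1341494 in Villin-Wls cKO tumors. The cause of the shifts in these counts was not tested. 

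Deviations of same-numbered tumors from their group means correlated at 0.064, -0.087, 0.063, 0.10 and 0.16 for numbers 1 to 5. Control tumors 1 and 5 correlated best with the Villin-Wls cKO tumor of their own number, and control tumors 2, 3 and 4 did not. Such correlations cannot exclude pairs, so whether same numbers mark pairs is not known. With the replicate block Fdft1 had a limma adjusted p of 0.0636 and 0 of 8 genes passed, with 1627 over all genes. Sc5d and Npc2 were then at 0.0506. Msmo1 was at 0.0108, with a standard error of 0.074 against 0.13 without the block. Depth is unknown, so counting error could not be given.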
